A study of Homo sapiens with 12 samples.

Results

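The expression of 9 genes that p53 is known to switch on was described in 2 human lymphoma cell lines grown at 1% or 21% oxygen. The genes were CDKN1A, MDM2, RPS27L, SESN1, GADD45A, TP53INP1, FAS, ZMAT3 and TP53I3. They were listed as established p53 targets, and each was found through the gene symbol of its probes. The 9 genes had 17 of the 47230 probes on the array. Of these, 12 probes were detected on at least 3 of the 12 arrays, and 8 of the 9 genes were among the 9621 genes tested. TP53I3 was not tested, since its probes did not pass that limit.

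p53 is a transcription factor that is kept scarce in unstressed cells because MDM2, a ubiquitin ligase, marks it for destruction. DNA damage and other stresses free p53 from MDM2, and p53 then binds its response elements and switches on genes of cell cycle arrest, DNA repair, metabolism and cell death. MDM2 is itself such a gene, which closes a feedback loop. CDKN1A encodes p21, an inhibitor of cyclin-dependent kinases and the best known p53 target. Severe lack of oxygen is one of the stresses that can stabilise p53 protein. The RNA of p53 itself was not analysed here, and the levels below are of its target genes only.

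Both lines, HLY (HLY-1) and SUDHL2, are established lines of diffuse large B-cell lymphoma (DLBCL), an aggressive tumour of B lymphocytes. Cells of each line were kept in RPMI-1640 medium with 10% FBS and 5% CO2, under either hypoxia (1% oxygen) or normoxia (21% oxygen), and 3 arrays were run for each of the 4 groups. The time spent under hypoxia before RNA was taken for the arrays was not given in the sources used here. No further agent or genetic change was named for any group, and nothing stated that the 3 arrays of a group came from separate cultures, so the p-values measure the spread between arrays only. The arrays had a median probe intensity of 111 to 149, and 12322 to 14925 probes per array were above background, that is, had a detection p-value under 0.01. All levels below are background-corrected, quantile-normalised log2 intensities, on which a difference of 1 is a doubling, and levels of different probes are not comparable with each other.

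The arrays did not group by line. Over all genes, HLY hypoxia arrays correlated with SUDHL2 normoxia arrays at a median r of 0.984 and with HLY normoxia arrays at 0.755. Likewise, SUDHL2 hypoxia arrays correlated with HLY normoxia arrays at 0.976 and with SUDHL2 normoxia arrays at 0.754. These correlations are across genes, which are not independent replicates. Of the 7 tested of 10 B-cell markers, 6 were called lower under hypoxia in HLY and higher in SUDHL2. Over all genes 32.4% were called lower in HLY and 33.3% higher in SUDHL2. CD79B, CD22, BLK and BLNK passed the detection limit only through HLY normoxia and SUDHL2 hypoxia, so these had to differ between groups. CD79B, a chain of the B-cell receptor complex, had mean levels of 4.95 in HLY hypoxia and 5.02 in SUDHL2 normoxia, with no array above background. It reached 10.98 in HLY normoxia and 10.95 in SUDHL2 hypoxia. MS4A1, which encodes CD20, was above background on 1 of the 6 arrays labelled HLY hypoxia or SUDHL2 normoxia and on all 6 of the others. CD74, the invariant chain of antigen presentation, ran the other way, with mean levels of 12.02 in HLY hypoxia, 12.25 in SUDHL2 normoxia, 11.51 in HLY normoxia and 11.28 in SUDHL2 hypoxia, called lower under hypoxia in SUDHL2 (adjusted p = 0.0052) and not called in HLY. A sum was also taken over all probes, detected or not, of the 9 listed markers that had a probe, CD74 included. This linear level ranged from 5087 to 8331 in HLY hypoxia, 8178 to 9027 in SUDHL2 normoxia, 14830 to 16824 in HLY normoxia and 10421 to 15819 in SUDHL2 hypoxia. PAX5 was at background on every array. Of the markers of T and NK cells 7 of 8 were at background on all arrays, of myeloid cells 6 of 8, and of fibroblasts and epithelium 7 of 8. The exception in the last list, EPCAM, an epithelial adhesion molecule, had means of 4.79 and 4.83 in HLY hypoxia and SUDHL2 normoxia and of 10.22 and 9.78 in HLY normoxia and SUDHL2 hypoxia. The part of these shifts in the results below was not tested. Opposite responses of the lines and an exchange of line labels between groups cannot be told apart from these arrays, so every direction within a label below holds for the libraries as labelled. Each gene is also compared between the groups that resemble each other. In bulk RNA, fewer cells of a type and less RNA per cell cannot be told apart.

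A p53 response element is a pair of 10-letter units, each equal to its own reverse complement in pattern, so that a search of 1 strand covers both. Promoter windows of 300 bases, from 250 bases before to 50 bases after a start site, were taken from RefSeq on build GRCh38.p14. The set of 35116 windows used here held 15 windows for 7 of the 9 genes and none for GADD45A or TP53INP1. A single exact unit was present in 6.63% of all 35116 windows. A pair of units without spacer, allowing 2 mismatches over the 20 letters, was present in 0.649%. The windows of 4 of these genes that held one or the other are shown because they carry the letters p53 can bind, with the match in capitals. In MDM2 and FAS the capitals are a pair with 2 mismatches, and in SESN1 and RPS27L a single exact unit. The MDM2 window is chr12:68808774-68809073 on the plus strand, the FAS window chr10:88991181-88991480 on the plus strand, the SESN1 window chr6:109008939-109009238 on the minus strand and the RPS27L window chr15:63157428-63157727 on the minus strand. In each the match lay before the start site.
MDM2: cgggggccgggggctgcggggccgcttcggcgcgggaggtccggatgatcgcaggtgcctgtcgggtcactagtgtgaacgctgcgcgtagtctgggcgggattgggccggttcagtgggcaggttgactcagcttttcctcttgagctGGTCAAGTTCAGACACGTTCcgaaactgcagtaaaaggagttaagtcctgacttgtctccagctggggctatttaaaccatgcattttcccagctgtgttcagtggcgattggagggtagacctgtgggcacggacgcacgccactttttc
FAS: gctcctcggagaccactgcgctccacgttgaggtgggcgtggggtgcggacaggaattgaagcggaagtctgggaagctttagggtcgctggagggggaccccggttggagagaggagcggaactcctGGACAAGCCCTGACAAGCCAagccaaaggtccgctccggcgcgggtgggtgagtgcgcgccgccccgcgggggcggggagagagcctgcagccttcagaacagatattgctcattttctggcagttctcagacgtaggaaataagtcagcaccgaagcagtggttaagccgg
SESN1: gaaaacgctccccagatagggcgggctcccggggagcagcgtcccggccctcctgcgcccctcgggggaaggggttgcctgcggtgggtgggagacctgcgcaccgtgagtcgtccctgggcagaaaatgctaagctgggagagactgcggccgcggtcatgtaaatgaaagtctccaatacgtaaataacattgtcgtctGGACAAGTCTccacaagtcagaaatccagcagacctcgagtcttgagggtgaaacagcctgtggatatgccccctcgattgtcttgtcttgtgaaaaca
RPS27L: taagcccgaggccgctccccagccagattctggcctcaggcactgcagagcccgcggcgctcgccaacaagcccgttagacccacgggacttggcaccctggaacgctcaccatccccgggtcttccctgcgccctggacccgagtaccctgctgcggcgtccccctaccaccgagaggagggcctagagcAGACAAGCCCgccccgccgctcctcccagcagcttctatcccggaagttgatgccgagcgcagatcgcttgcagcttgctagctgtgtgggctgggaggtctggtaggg
The pair in the FAS window overlaps a single exact unit. The windows of CDKN1A, ZMAT3 and TP53I3 held no match, which says only that these letters are not within them. A match is a description of the sequence and not evidence of binding in these cells.

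CDKN1A separated the groups widely. It had log2 levels of 12.21, 12.32 and 12.34 on the HLY hypoxia arrays and 8.02, 7.68 and 8.10 on the HLY normoxia arrays. Its levels were 8.29, 8.24 and 8.13 in SUDHL2 hypoxia and 12.73, 12.88 and 12.89 in SUDHL2 normoxia. The gene was thus high under hypoxia in HLY and under normoxia in SUDHL2, and no array of a high group overlapped a low one. Hypoxia against normoxia gave a log2 difference of 4.36 ± 0.131 (SE) in HLY, a 20.5-fold higher level (adjusted p = 1.5e-12), and of −4.61 ± 0.131 in SUDHL2, a 24.4-fold lower level (adjusted p = 8.81e-13). On this probe the gene was above background on all 12 arrays, whereas a second probe of CDKN1A was at background on every array.

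GADD45A encodes a stress protein that takes part in growth arrest and DNA repair. Its levels were 8.70, 8.82 and 9.04 in HLY hypoxia and 8.81, 9.01 and 9.05 in SUDHL2 normoxia. They were 5.07, 5.14 and 4.87 in HLY normoxia and 5.99, 5.43 and 5.04 in SUDHL2 hypoxia. Of these 6 low arrays only the one at 5.99 was above background, and all lay below the high arrays. HLY hypoxia was at least 7.76-fold above HLY normoxia (fitted log2 difference 3.83 ± 0.198, adjusted p = 4.6e-10), and SUDHL2 hypoxia was lower than SUDHL2 normoxia by a log2 difference of −3.47 ± 0.198 (adjusted p = 1.45e-09). A second probe of GADD45A, above background on all 6 arrays of the high groups and on no other, gave 3.38 and −3.35. Such a lower bound sets the mean of the bright group against the lowest signal that still counted as detected on the dim arrays.

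SESN1 encodes a sestrin, a stress protein that restrains the growth kinase mTORC1. Its levels were 7.23, 7.03 and 7.02 in HLY hypoxia, 5.51, 5.23 and 5.27 in HLY normoxia, 5.38, 4.99 and 5.18 in SUDHL2 hypoxia and 7.31, 6.92 and 7.03 in SUDHL2 normoxia. The high groups did not overlap the low ones, and no array of the low groups was above background. HLY hypoxia exceeded HLY normoxia at least 2.29-fold (adjusted p = 9.31e-08), and SUDHL2 normoxia exceeded SUDHL2 hypoxia at least 2.15-fold (adjusted p = 3.77e-08).

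MDM2, the inhibitor that p53 itself switches on, had levels of 7.57, 7.85 and 6.96 in HLY hypoxia and 4.95, 5.09 and 5.04 in HLY normoxia. In SUDHL2 they were 5.41, 5.14 and 4.87 under hypoxia and 7.07, 7.29 and 7.22 under normoxia. Again the high groups stood clear of the low ones, which were at background on all 6 arrays. A second probe of MDM2 was at background on every array, with means of 4.84 in HLY hypoxia and 4.93 in SUDHL2 normoxia. The level was at least 2.96-fold higher in HLY hypoxia than in HLY normoxia (adjusted p = 7.26e-08) and at least 2.31-fold higher in SUDHL2 normoxia than in SUDHL2 hypoxia (adjusted p = 4.6e-07). The spread within HLY hypoxia was the widest of any group for this gene (SD 0.457, n = 3).

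**Figure D1:**
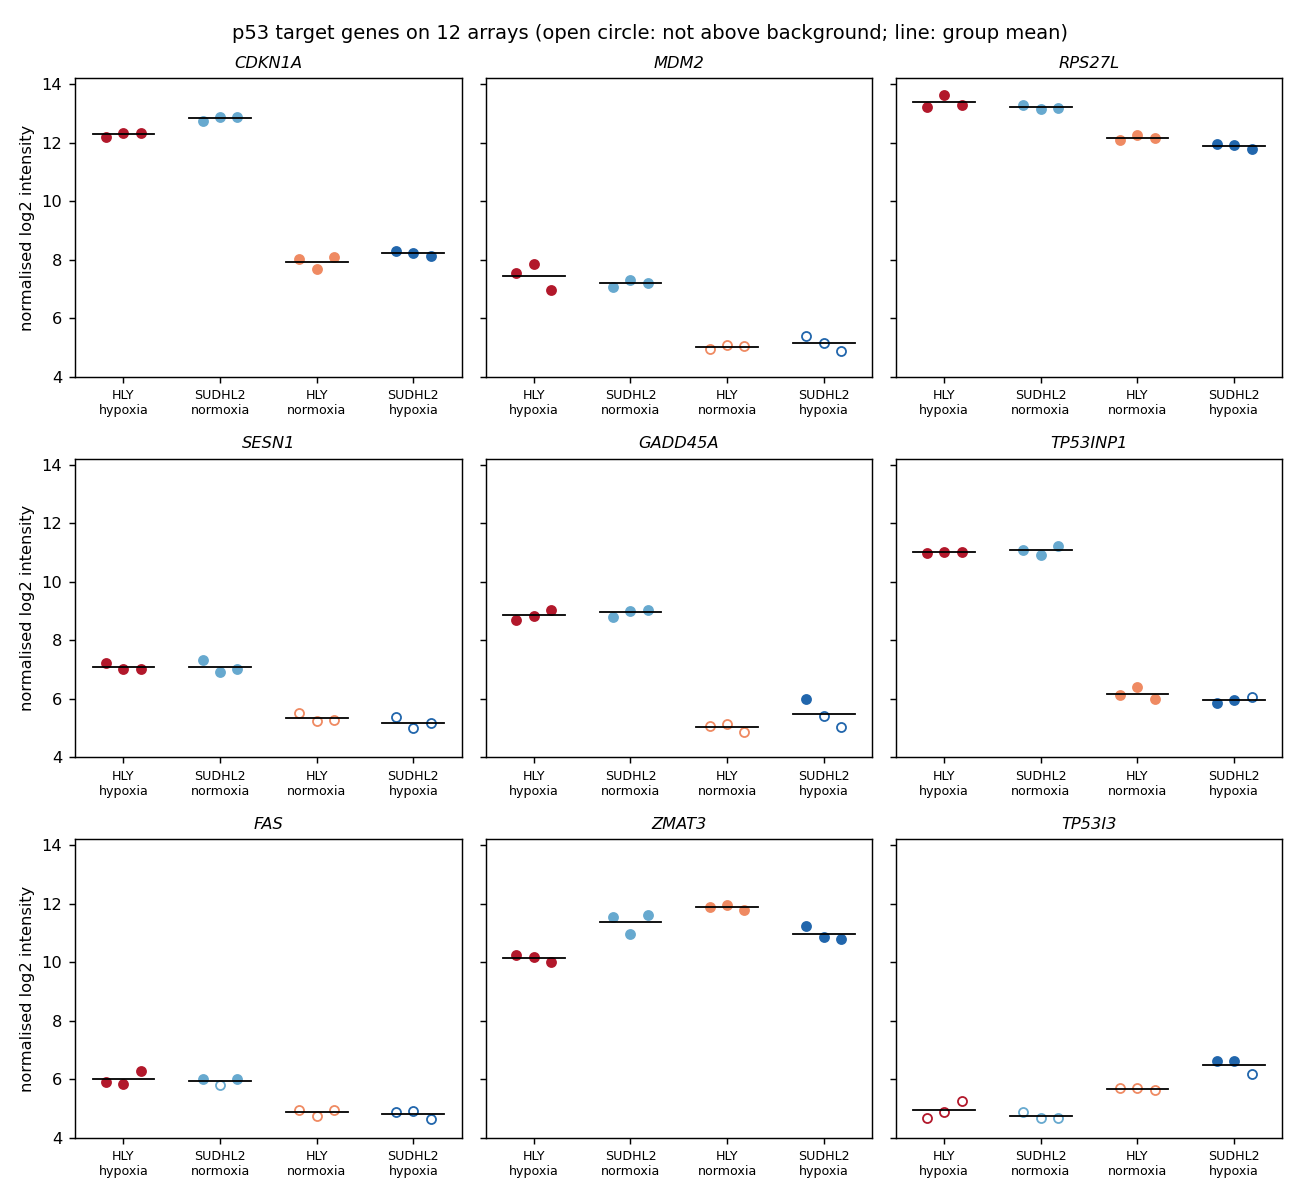
Normalised log2 intensity of the 9 genes on the 12 arrays, with 1 point per array, an open circle where the probe was not above background and a line at each group's mean. The groups are ordered so that those that resemble each other stand side by side, and CDKN1A lies between 12.21 and 12.89 on the left pair and between 7.68 and 8.29 on the right pair.

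TP53INP1 encodes a nuclear protein that promotes p53 activity and autophagy. It had the largest differences of the 8 genes tested. Its levels were 10.97, 11.02 and 11.03 in HLY hypoxia and 11.10, 10.93 and 11.23 in SUDHL2 normoxia, against 6.13, 6.40 and 5.98 in HLY normoxia and 5.87, 5.95 and 6.05 in SUDHL2 hypoxia. Of the low arrays, 5 of 6 were above background, though near the lowest levels that counted as detected on these arrays (5.71 to 6.30). The log2 difference between hypoxia and normoxia was 4.83 ± 0.134 in HLY (28.5-fold higher, adjusted p = 6.46e-13) and −5.13 ± 0.134 in SUDHL2 (35.0-fold lower, adjusted p = 4.03e-13). A second probe of the gene, at background on all 6 low arrays, gave 5.40 and −5.48.

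FAS, the death receptor that starts the extrinsic path of apoptosis, was dim throughout. Its levels were 5.90, 5.82 and 6.27 in HLY hypoxia, 4.95, 4.75 and 4.93 in HLY normoxia, 4.89, 4.92 and 4.66 in SUDHL2 hypoxia and 6.01, 5.82 and 6.0 in SUDHL2 normoxia. The high groups did not overlap the low groups, but 1 of the SUDHL2 normoxia arrays was not above background and none of the low arrays was. HLY hypoxia was at least 1.07-fold above HLY normoxia (fitted log2 difference 1.12 ± 0.143, adjusted p = 8.42e-06). The fitted difference in SUDHL2 was −1.12 ± 0.143 (adjusted p = 8.04e-06), for which the detection limit leaves no fold.

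RPS27L encodes a ribosomal protein close to RPS27 that is induced by p53 and binds MDM2. It had levels of 13.21, 13.62 and 13.31 in HLY hypoxia and 12.09, 12.28 and 12.16 in HLY normoxia. In SUDHL2 they were 11.95, 11.92 and 11.78 under hypoxia and 13.28, 13.16 and 13.20 under normoxia. The groups did not overlap within either line, and the change was smaller than that of CDKN1A. A second probe of RPS27L was at background on every array. The level was 2.30-fold higher under hypoxia in HLY (log2 difference 1.20 ± 0.131, adjusted p = 1.61e-06) and 2.51-fold lower under hypoxia in SUDHL2 (−1.33 ± 0.131, adjusted p = 5.8e-07).

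TP53I3, a quinone oxidoreductase also known as PIG3, was too dim for a test. One of its probes was at background on all 12 arrays. The other was above background on 2 of the 12 arrays, both SUDHL2 hypoxia, where its levels were 6.61, 6.62 and 6.18. They were 4.66, 4.89 and 5.26 in HLY hypoxia, 5.71, 5.71 and 5.62 in HLY normoxia and 4.86, 4.68 and 4.66 in SUDHL2 normoxia. The highest values of TP53I3 thus lay in a group where CDKN1A was low, at the edge of what the array could measure.

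ZMAT3 encodes a zinc finger protein that binds RNA and acts in tumour suppression below p53. It departed from the other genes. On its brightest probe the levels were 10.25, 10.19 and 10.02 in HLY hypoxia, 11.90, 11.94 and 11.79 in HLY normoxia, 11.22, 10.85 and 10.81 in SUDHL2 hypoxia and 11.53, 10.98 and 11.61 in SUDHL2 normoxia. HLY hypoxia was the lowest group and overlapped no other, whereas the SUDHL2 groups overlapped each other. The log2 difference was −1.73 ± 0.170 in HLY (3.31-fold lower, adjusted p = 5.71e-07) and −0.41 ± 0.170 in SUDHL2 (1.33-fold lower, adjusted p = 0.0451). The call in SUDHL2 was kept in 2 of 12 fits that each left out 1 array (adjusted p from 0.0035 to 0.175, differences from −0.61 to −0.30).

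The 3 probes of ZMAT3 disagreed in SUDHL2. The probe ILMN_1654262 had levels of 10.03, 9.82 and 9.73 in SUDHL2 hypoxia and 9.17, 9.14 and 9.11 in SUDHL2 normoxia. The probe ILMN_1865764 had 9.45, 9.26 and 9.39 against 8.43, 8.46 and 8.27. Both were thus higher under hypoxia with no overlap, by 0.72 ± 0.124 (adjusted p = 0.000172) and 0.98 ± 0.122 (adjusted p = 8.24e-06), where the brightest probe, ILMN_2361104, was lower (adjusted p = 0.0528 in this fit over all detected probes, which misses the threshold). In HLY all 3 were lower under hypoxia, by −1.73, −1.63 and −1.34. The direction of ZMAT3 in SUDHL2 therefore depends on the probe, and with the mean of the 3 probes it was 0.43 (adjusted p = 0.00432).

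**Figure D2:**
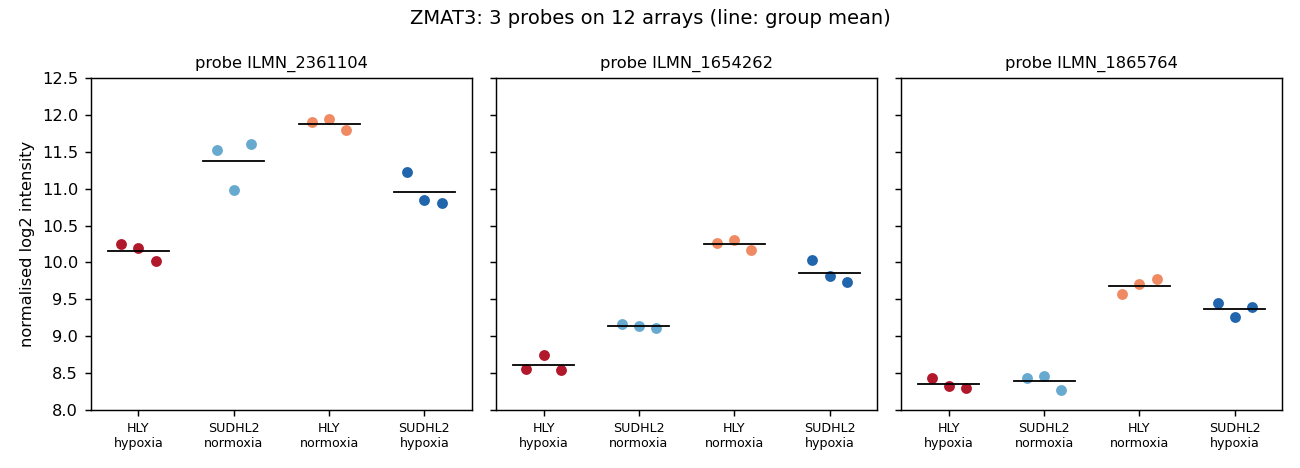
Normalised log2 intensity of the 3 ZMAT3 probes on the 12 arrays, with 1 point per array and a line at each group's mean. In SUDHL2 the brightest probe (left) has overlapping groups, while the others lie 0.72 and 0.98 higher under hypoxia.

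Side by side, the 8 tested genes held 7 that were higher and 1 that was lower under hypoxia in HLY, where 33.1% of all genes tested were called higher and 32.4% lower at an adjusted p under 0.05. In SUDHL2 none was higher and 8 were lower, against 33.3% and 33.0% of all genes. ZMAT3 was among these 8 on its brightest probe only, and its other probes were called higher under hypoxia in SUDHL2. In HLY the arrays of hypoxia and normoxia did not overlap in all 8 genes (71.9% of all genes), and in SUDHL2 in 7, all except ZMAT3 (66.9% of all genes). Calls were thus common over the whole array. MDM2, SESN1, GADD45A and FAS passed the detection limit through their high groups, apart from 1 GADD45A array, so these had to differ between groups. Among the 4 genes that were above background on 11 or 12 arrays, CDKN1A, RPS27L and TP53INP1 were higher in HLY hypoxia and ZMAT3 was lower. The median log2 difference over the 8 genes was 2.09 in HLY and −1.98 in SUDHL2, against −0.01 and 0.02 over all genes. The responses in HLY and SUDHL2 share no arrays, and their difference was called in each of the 8 genes, as it was in 73.8% of all genes. It was positive in 7 genes and negative in ZMAT3, against 36.6% and 37.1% of all genes. An exact permutation test over 3 against 3 arrays of a single gene cannot give less than p = 0.1, which every non-overlapping pair of groups reached.

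In 7 of the 8 genes, all except ZMAT3, all 6 arrays of HLY hypoxia and SUDHL2 normoxia lay above all 6 of HLY normoxia and SUDHL2 hypoxia. This order was found in 25% of all genes, and the reverse in 24.5%. MDM2, SESN1, GADD45A and FAS passed the detection limit through HLY hypoxia and SUDHL2 normoxia, apart from 1 GADD45A array. Their place in this order was thus largely set by that limit. CDKN1A, RPS27L and TP53INP1, above background on 11 or 12 arrays, were not bound by it. The 7 genes were called higher in HLY and lower in SUDHL2, as were 26.3% of all genes. ZMAT3 was lower under hypoxia in both lines on its brightest probe, which 0.811% of all genes were. Its call in SUDHL2 was near the threshold (limma, adjusted p = 0.0451), and the arrays there overlapped. That call was kept in 2 of 12 fits that each left out 1 array. On its other probes ZMAT3 was higher under hypoxia in SUDHL2.

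Groups that resemble each other were compared next. Comparing HLY hypoxia with SUDHL2 normoxia, 2.40% of all genes were called (1.17% higher and 1.23% lower), and of the 8 genes CDKN1A and ZMAT3 were. CDKN1A was lower in HLY hypoxia by a log2 difference of −0.54 ± 0.131 (adjusted p = 0.0477), with no overlap of the arrays (21.3% of all genes), and ZMAT3 by −1.22 ± 0.170 (adjusted p = 0.00168). The other probes of ZMAT3 gave −0.52 (adjusted p = 0.0452) and −0.04 (adjusted p = 0.922) here. When each of the 12 arrays was left out in turn, the call for CDKN1A was kept in 2 fits (adjusted p from 0.0354 to 0.143). For the other 6 genes the difference lay between −0.10 and 0.26, with 95% intervals that reached from −0.53 to 0.69 at their widest. Comparing SUDHL2 hypoxia with HLY normoxia, 15.9% of all genes were called (5.75% higher and 10.1% lower) and of the 8 genes only ZMAT3 was, at −0.92 ± 0.170 (adjusted p = 0.00327). Its other probes gave −0.39 and −0.32 and were not called. CDKN1A differed there by 0.29 (95% interval 0.00 to 0.57, adjusted p = 0.156), RPS27L by −0.29 (−0.57 to −0.01, adjusted p = 0.147) and GADD45A by 0.46 (0.04 to 0.89, adjusted p = 0.131). None of these passed the test, although the arrays of CDKN1A and RPS27L did not overlap. Only 1 of the GADD45A arrays compared was above background, so its difference lies between signals near background. The second probe of GADD45A, at background in both groups, gave 0.16 (limma over all detected probes, adjusted p = 0.598). Without SUDHL2 hypoxia replicate 3 the difference of GADD45A was 0.68 (adjusted p = 0.0322).

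Averaged over both labels, which does not depend on which line a group came from, hypoxia arrays differed from normoxia arrays in 9.54% of all genes (3.90% higher and 5.64% lower). ZMAT3 alone among the 8 was called, at −1.07 ± 0.120 (adjusted p = 9.05e-05). With arrays centred on their medians in place of quantile normalisation it was −0.89 and not called, and its calls across labels, within SUDHL2 and between the lines at either oxygen level were lost as well. Its other probes gave −0.46 (adjusted p = 0.00661) and −0.18 (adjusted p = 0.224) in the fit over all detected probes. For CDKN1A the averaged difference was −0.13 (95% interval −0.33 to 0.07), for MDM2 0.19 (−0.11 to 0.49), for TP53INP1 −0.15 (−0.35 to 0.06) and for GADD45A 0.18 (−0.12 to 0.48). RPS27L, SESN1 and FAS lay between −0.08 and 0.00.

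**Figure D3:**
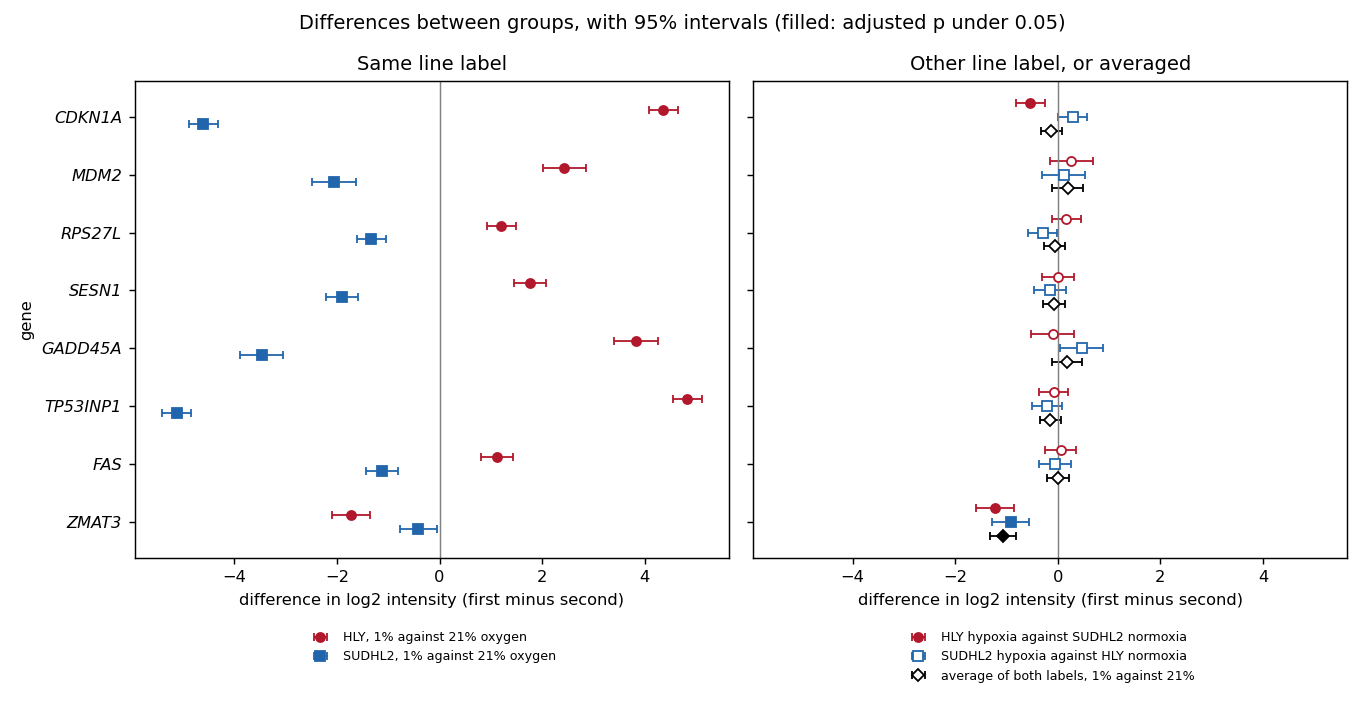
Differences in log2 intensity (x axis) of the 8 tested genes, with 95% intervals from limma and filled symbols where the adjusted p was under 0.05. On the left, hypoxia against normoxia under the same label runs from −5.13 to 4.83, and on the right the comparisons across labels and their average stay within −1.22 and 0.46.

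Between the lines at the same oxygen level the same split was seen from the other side. At 21% oxygen, where 32.7% of all genes were called higher and 31.8% lower in HLY than in SUDHL2, 7 of the 8 genes were lower and ZMAT3 was higher (0.51 ± 0.170, adjusted p = 0.0178). This call of ZMAT3 was lost without HLY normoxia replicate 2 (0.47) or SUDHL2 normoxia replicate 2 (0.31). CDKN1A was 29.8-fold lower and TP53INP1 30.1-fold lower in HLY normoxia than in SUDHL2 normoxia. At 1% oxygen, where 33.4% were called higher and 33.1% lower, 7 were higher and ZMAT3 was lower (−0.81 ± 0.170, adjusted p = 0.000758). CDKN1A was 16.8-fold and TP53INP1 33.1-fold higher in HLY hypoxia than in SUDHL2 hypoxia. These comparisons use the same arrays as those within each line.

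Ordered by level, CDKN1A ran from SUDHL2 normoxia through HLY hypoxia and SUDHL2 hypoxia to HLY normoxia, with means of 12.83, 12.29, 8.22 and 7.93. Its 2 lower neighbours were not separated by the test. In MDM2, RPS27L, SESN1, GADD45A, TP53INP1 and FAS the test separated neither the 2 higher nor the 2 lower neighbours. Only the step between the pairs was called. In CDKN1A and RPS27L the arrays of the 2 lower neighbours did not overlap, although the test did not call them. For MDM2, SESN1 and FAS both lower groups were at background, as were 5 of the 6 low arrays of GADD45A, so their lower neighbours have no measured order. In ZMAT3 the order on its brightest probe was HLY normoxia, SUDHL2 normoxia, SUDHL2 hypoxia and HLY hypoxia, with means of 11.88, 11.37, 10.96 and 10.15. Each step was called in the main fit, but none under median centring. With 1 array left out at a time, the step within SUDHL2 was kept in 2 of 12 fits and that at 21% oxygen in 10.

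Other p53 targets did not all follow the same order. Of 50 further targets from a list by role, 35 were tested. In HLY 15 were higher and 10 lower under hypoxia, with a median of 0.29, and in SUDHL2 10 were higher and 15 lower, with a median of −0.26. Over all genes 33.1% were higher and 32.4% lower in HLY, and 33.3% and 33.0% in SUDHL2, and no list was tested as a whole. In the arrest and growth list, 6 of 8 tested genes were higher and 1 lower in HLY, and 1 was higher and 6 lower in SUDHL2. SESN2 and SFN of this list passed the detection limit only through HLY hypoxia and SUDHL2 normoxia, so these had to differ between groups. SESN2, a second sestrin, was at least 2.89-fold higher under hypoxia in HLY (adjusted p = 1.16e-07) and at least 3.17-fold lower in SUDHL2 (adjusted p = 2.12e-07). PRDM1, the transcription factor of plasma cell fate, differed by 1.39 ± 0.129 in HLY and −1.48 in SUDHL2. FBXW7, which selects substrates for a ubiquitin ligase, differed by 1.30 and −0.91. CDC42SE1, a small effector of CDC42, went the other way, by −1.02 and 1.60.

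Of 14 tested targets of cell death, 4 were higher and 5 lower in HLY, and 5 were higher and 3 lower in SUDHL2. The shares of all genes were 33.1% and 32.4% in HLY and 33.3% and 33.0% in SUDHL2. DRAM1, a lysosomal protein of autophagy, was at least 6.14-fold higher in HLY hypoxia (adjusted p = 2.07e-11), and in SUDHL2 it was lower by −1.69 (adjusted p = 2.14e-08). PIDD1, a death-domain protein, differed by 1.06 and −0.89. PERP, a membrane protein of desmosomes and apoptosis, was at background in HLY hypoxia and SUDHL2 normoxia, at least 4.13-fold lower in the HLY comparison and at least 3.98-fold higher in the SUDHL2 comparison. PERP passed the detection limit only through HLY normoxia and SUDHL2 hypoxia, so it had to differ between groups. BID, which links death receptors to mitochondria, was 5.91-fold lower in HLY hypoxia (−2.56, adjusted p = 2.87e-09) and differed by 2.89 in SUDHL2. BBC3 and PMAIP1, which encode the killer proteins PUMA and NOXA, gave −0.05 and −0.20 in HLY and were not called in either line, nor was BAX, at 0.21 in HLY and −0.55 in SUDHL2.

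Of 13 tested targets of DNA repair and other roles, 5 were higher and 4 lower in HLY, and 4 were higher and 6 lower in SUDHL2, beside the same shares of all genes. DDB2, which recognises ultraviolet damage, differed by 2.21 ± 0.171 in HLY (adjusted p = 4.15e-08) and −2.35 in SUDHL2, and was above background on 1 of 3 arrays in each low group. CMBL, a hydrolase, differed by 1.55 and −1.25. SPATA18, a protein of mitochondrial quality control, was at background in HLY hypoxia and SUDHL2 normoxia and at least 2.86-fold and 2.69-fold higher in the groups paired with them. SPATA18 passed the detection limit only through those brighter groups, so it had to differ between groups. TRIM22, an interferon-induced protein, differed by −2.41 and 1.66. On average over both labels, DRAM1 (0.73, adjusted p = 0.000148) and TRIAP1, an inhibitor of apoptosis (0.52, adjusted p = 0.0168), were higher under hypoxia. RRM2B, a subunit of ribonucleotide reductase, was lower (−0.61, adjusted p = 0.0122), although its arrays overlapped. These were the only 3 of the 35 called there, against 9.54% of all genes. Under median centring DRAM1 kept its call, and TRIAP1 and RRM2B did not.

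**Figure D4:**
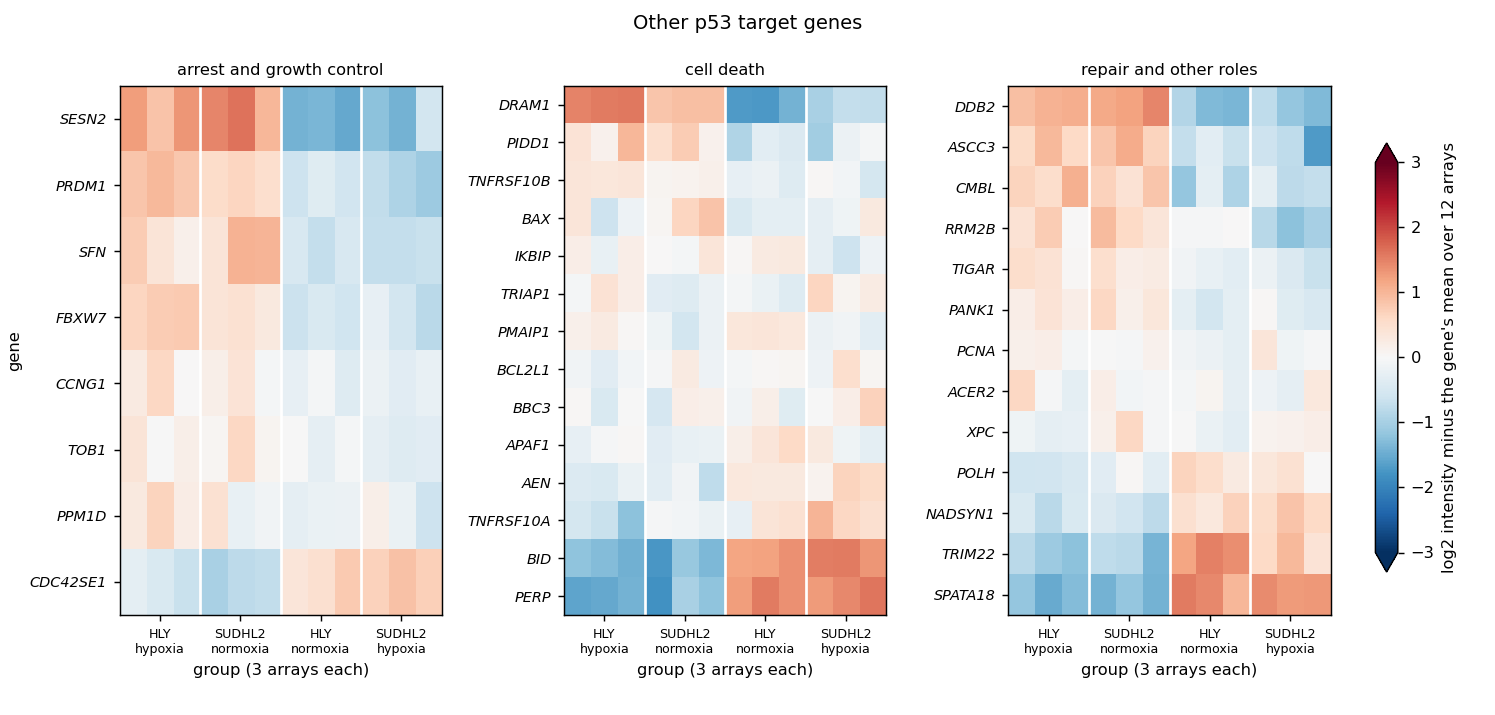
Log2 intensity of the 35 other p53 targets tested, as colour, relative to each gene's mean over the 12 arrays (columns, 3 per group). Red rows at the top, such as SESN2, DRAM1 and DDB2, share the order of CDKN1A, and blue rows at the bottom, such as PERP, BID and SPATA18, show the reverse.

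The regulators of p53 were measured through 20 of 24 listed genes, of which 5 were higher and 7 lower in HLY, and 9 were higher and 5 lower in SUDHL2, against 33.1% and 32.4% of all genes in HLY and 33.3% and 33.0% in SUDHL2. EP300, the acetyltransferase that serves p53 as a coactivator, was at background in HLY normoxia and SUDHL2 hypoxia. EP300 passed the detection limit only through HLY hypoxia and SUDHL2 normoxia, so it had to differ between groups. It was at least 4.96-fold higher in HLY hypoxia (adjusted p = 4.71e-09) and at least 3.87-fold lower in SUDHL2 hypoxia (adjusted p = 7.81e-09). HIPK2, a kinase that phosphorylates p53, differed by 2.51 ± 0.200 in HLY and −3.09 in SUDHL2, and was likewise above background on 1 of 3 arrays in each low group. CDKN2A, the locus of p16 and of the MDM2 inhibitor ARF, differed by 1.03 and −0.74. ATM, the kinase that answers DNA breaks, was 3.30-fold lower in HLY hypoxia (−1.72, adjusted p = 1.24e-07) and differed by 0.49 in SUDHL2. Its averaged difference was −0.62 (adjusted p = 0.00266), and neither this nor the SUDHL2 difference was called under median centring. MDM4, the partner of MDM2, was dim, at 0.08 in HLY and 0.05 in SUDHL2, and was not called.

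p21 acts on cyclins and their kinases, and cells arrested through p21 are known to lower the genes of mitosis. Of 13 tested genes of this kind, 5 were higher and 2 lower in HLY hypoxia, where CDKN1A was high, and 3 were higher and 3 lower in SUDHL2. The shares of all genes were again 33.1% and 32.4% in HLY and 33.3% and 33.0% in SUDHL2. FOXM1, a transcription factor of mitosis, differed by 1.23 ± 0.181 in HLY and −0.58 in SUDHL2. CDK1, the mitotic kinase, differed by 1.06 and −1.68, and CCNB2, one of its cyclins, by 0.97 and −0.32, the latter not called under median centring. These named genes were thus higher where CDKN1A was higher. BUB1B, a kinase of the spindle checkpoint, ran the other way, at −1.91 (adjusted p = 6.04e-08) and 1.53. In BUB1B and CCNA2 all arrays of HLY hypoxia and SUDHL2 normoxia lay below all of the other groups (24.5% of all genes). In CDK1, CCNB2 and BIRC5 they lay above (25% of all genes), and in FOXM1 and the rest of this list neither held. On average over both labels CCNB2 was higher under hypoxia by 0.32 (adjusted p = 0.0282), not called under median centring.

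Of the cyclins and kinases that p21 binds, 6 of 8 were tested, with 2 higher and 2 lower in each line. Over all genes 33.1% were higher and 32.4% lower in HLY, and 33.3% and 33.0% in SUDHL2. CCND2, which encodes cyclin D2, had a larger difference than any of the 8 p53 targets tested. It was at background in HLY normoxia and at least 113-fold higher in HLY hypoxia (12.72 against 4.80, adjusted p = 1.49e-12), and in SUDHL2 the difference was −7.13, with 1 of 3 arrays of SUDHL2 hypoxia above background. Apart from that array, CCND2 passed the detection limit through HLY hypoxia and SUDHL2 normoxia, so it had to differ between groups. CCND3, which encodes cyclin D3, ran opposite to it, at −3.56 in HLY (11.8-fold lower) and 3.32 in SUDHL2. CCNE1 differed by −1.66 and 1.81, and CDK6 by 0.92 and −1.15. CDK2 and CDK4 were not called in either line.

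**Figure D5:**
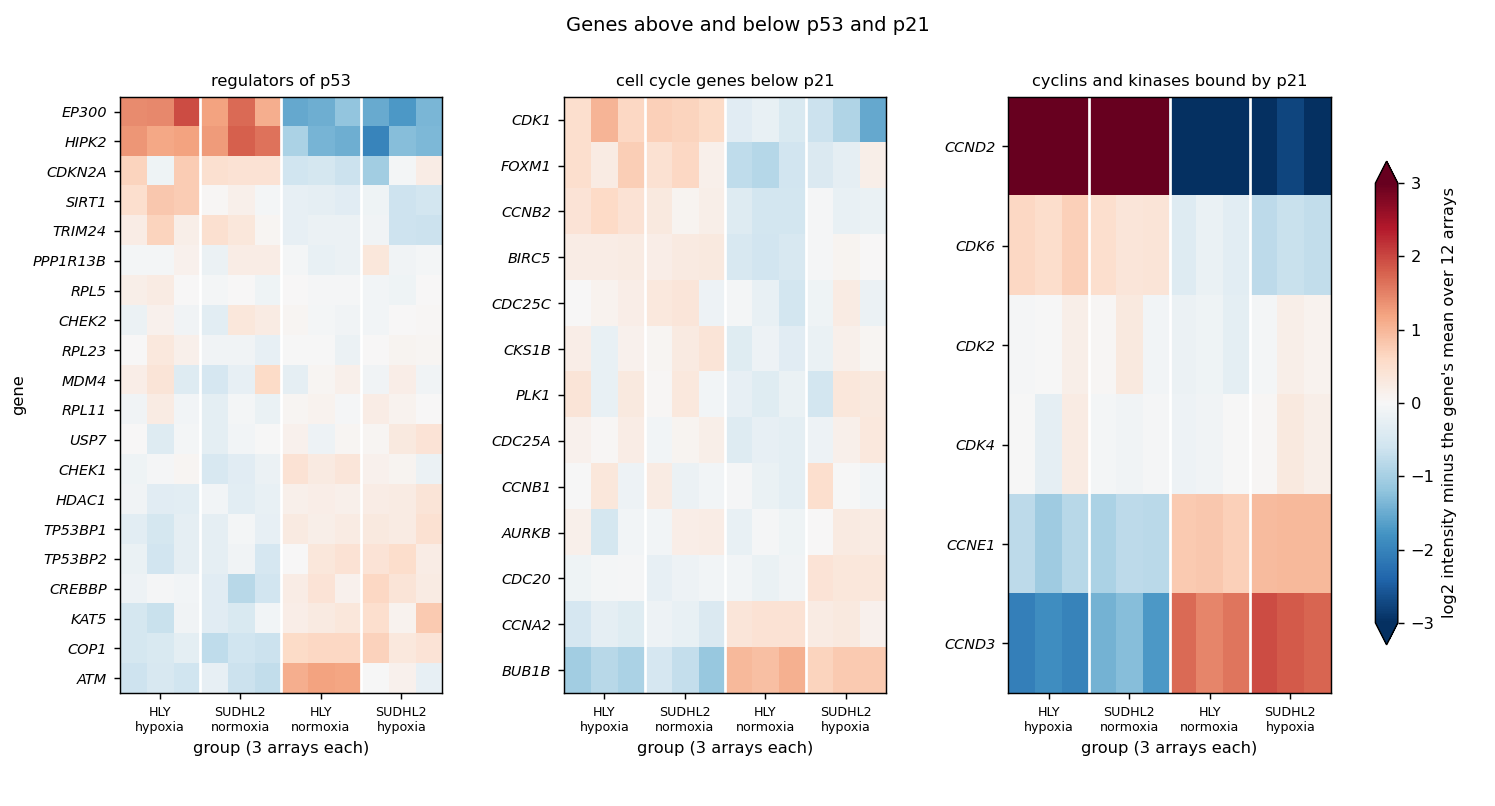
Log2 intensity of regulators of p53, of cell cycle genes that are lowered in p21 arrest and of cyclins and kinases bound by p21, as colour, relative to each gene's mean over the 12 arrays (columns, 3 per group). EP300, HIPK2 and CCND2 are red on the left 6 arrays and blue on the right 6, and CCND3 is the reverse. The colour scale ends at 3 in either direction, which CCND2 exceeds.

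Of 11 relatives of the 9 genes by sequence 7 were tested, among them SESN2 and MDM4, which are counted above as well. In HLY 5 were higher and none lower, and in SUDHL2 none was higher and 4 were lower, against 33.1% and 32.4% of all genes in HLY and 33.3% and 33.0% in SUDHL2. SESN2 and TP53INP2 passed the detection limit only through HLY hypoxia and SUDHL2 normoxia, so these had to differ between groups. CDKN1B, which encodes the p21 relative p27, differed by 1.59 ± 0.153 in HLY (adjusted p = 4.37e-07) and −1.24 in SUDHL2. GADD45B differed by 1.72 and −0.58, and by 0.57 on average over both labels (adjusted p = 0.00674), the latter not called under median centring. TP53INP2, a protein of autophagy, was at background in HLY normoxia and SUDHL2 hypoxia and at least 1.22-fold and 1.27-fold higher in the groups paired with them. ZMAT2 was higher by 0.34 in HLY (adjusted p = 0.0263) and gave −0.24 in SUDHL2. RPS27, the ribosomal protein that RPS27L resembles, gave −0.28 in HLY (adjusted p = 0.0721) and 0.10 in SUDHL2 and was not called.

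Of the genes that carry the signal of FAS, 7 of 10 were tested, BID of the cell death list among them, with 1 higher and 4 lower in HLY (33.1% and 32.4% of all genes) and 5 higher and 1 lower in SUDHL2 (33.3% and 33.0%). CFLAR, which encodes the caspase-8 inhibitor c-FLIP, differed by −1.52 ± 0.114 in HLY (adjusted p = 2.89e-08) and 0.76 in SUDHL2, and by −0.38 on average over both labels (adjusted p = 0.0103), the latter not called under median centring. DAXX, which binds FAS, differed by −0.78 and 0.87, and FAIM, an inhibitor of FAS-induced apoptosis, by 0.57 and −0.48. Under median centring DAXX in HLY and FAIM in SUDHL2 were not called. The ligand FASLG was at background on all arrays.

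The genes whose pattern over the 12 arrays was most like each of the 8 were found by the mean absolute difference of log2 levels after centring each gene on its mean. For CDKN1A the closest was BTBD3, at a mean difference of 0.133. MDM2 was closest to HGF (0.137), RPS27L to IMPA1 (0.0635), SESN1 to TARS1 (0.108), GADD45A to SRPK2 (0.170), TP53INP1 to PALLD (0.0941) and FAS to B3GALT6 (0.104). For ZMAT3 it was CEP19 (0.0757). None of the 8 genes had another of them as its closest match. Levels were centred but not scaled, so this measure also reflects the size of each gene's step. CDKN1A and FAS, whose arrays share an order, were 1.68 apart, and RPS27L and FAS 0.165. That order was found in 25% of all genes, so close matches outside the 8 were many.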

How the data were processed

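Total RNA of 12 samples labelled HLY or SUDHL2, hypoxia or normoxia, was hybridised to Illumina HumanHT-12 BeadChips of 1 colour. The authors deposited the probe intensity as GenomeStudio 2011.1 gave it, neither background-corrected nor normalised, with a detection p-value for each probe and array. They also deposited a score per probe, which lay within 0.0109 of log10 intensity centred and scaled per array, and was used as an alternative. Intensities were corrected with normexp from the detection p-values (offset 16), quantile-normalised and log2-transformed with neqc of limma 3.58.1 in R 4.3.3. A probe was kept if its detection p-value was under 0.01 on at least 3 arrays, which 16288 of 47230 probes did. Symbols came from the platform annotation, which listed 30121 probes, 8 of them with several symbols, which were not used. The other 17109 probes had no symbol. Symbols were updated through gene numbers to RefSeq. The brightest of the kept probes stood for a gene, which gave 9621 genes, of which 2492 had several kept probes.

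Group means were fitted with lmFit and moderated with eBayes over all 12 arrays (residual degrees of freedom 8, prior 5.71), with adjustment over all genes tested by the Benjamini-Hochberg method and a threshold of 0.05. Intervals are at 95%. The fits were tested on simulated data. Within a group the number of arrays, 3, limits the precision. No chip or slide was named in the files, so no batch could be examined. Named genes were all 9 p53 targets and their relatives, and from each other list up to 4 genes with the largest called difference without overlap in HLY and up to 4 on average over both labels, or the largest difference where none passed. BAX, BBC3, PMAIP1, CDK2, CDK4, FASLG, SFN, CCNA2 and BIRC5 were named after their values were seen. The 9 genes and all lists were chosen with earlier results of these data known. Alternatives changed the background correction, the normalisation, the detection limit, the probe, the moderation, the arrays in the fit and the test.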

Additional observations from a re-analysis of the deposited data

Results flagged for a closer look

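The response to hypoxia differed between the labels HLY and SUDHL2 by limma's test of the difference in all 8 p53 targets tested, as it did in 73.8% of all genes. The log2 response in HLY minus that in SUDHL2 was positive for CDKN1A (8.97), MDM2 (4.49), RPS27L (2.53), SESN1 (3.66), GADD45A (7.30), TP53INP1 (9.96) and FAS (2.24) and negative for ZMAT3 (−1.31). The other named genes with a called and positive difference were CCNB2 (1.30), CCND2 (15.05), CDK1 (2.74), CDK6 (2.08), CDKN1B (2.83), CDKN2A (1.77), CMBL (2.79), DDB2 (4.56), DRAM1 (4.84), EP300 (5.86), FAIM (1.05), FBXW7 (2.21), FOXM1 (1.81), GADD45B (2.30), HIPK2 (5.60), PIDD1 (1.95), PRDM1 (2.87), RRM2B (2.09), SESN2 (5.02), TP53INP2 (2.20) and ZMAT2 (0.58). Those with a called and negative difference were ATM (−2.21), BID (−5.45), BUB1B (−3.44), CCND3 (−6.88), CCNE1 (−3.47), CDC42SE1 (−2.62), CFLAR (−2.28), DAXX (−1.65), PERP (−5.68), SPATA18 (−5.31) and TRIM22 (−4.06). MDM2, SESN1, GADD45A, FAS, CCND2, DRAM1, EP300, PERP, SESN2, SPATA18 and TP53INP2 were at background on every array of at least 1 low group, so their values here are fitted differences and not measured sizes. HLY hypoxia arrays resembled SUDHL2 normoxia arrays over the whole array, and the part of that resemblance in these differences was not tested.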

How the results depend on the processing

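Under the labels, 322 of 330 values of CDKN1A, MDM2, RPS27L, SESN1, GADD45A, TP53INP1 and FAS kept their direction and call over 25 settings, and the other 8 lost the call under the selection of the study's methods on the deposited scores. In SUDHL2, ZMAT3 turned from −0.41 to 0.43 with the mean of its kept probes, and to 0.72 and 0.98 with its 2 less bright probes, settings added after seeing the data. Each of these settings gave 1 gene higher in SUDHL2 in place of 0. With the dimmest of its probes the counts of lower genes were 0 on average, 1 in HLY hypoxia against SUDHL2 normoxia and 0 in SUDHL2 hypoxia against HLY normoxia, in place of 1, 2 and 1. Median centring shifted the median of all genes in the HLY response to 0.29 and on average to 0.11, and left 0 genes lower on average, 0 in HLY hypoxia against SUDHL2 normoxia, 0 in SUDHL2 hypoxia against HLY normoxia, 0 higher at 21% oxygen and 0 lower at 1%. Over all genes it called 3318 higher and 1585 lower in HLY (67.7% higher, against 50.5%), 2126 and 2641 in SUDHL2, 32 and 33 on average (in place of 375 and 543), 29 and 0 in HLY hypoxia against SUDHL2 normoxia (in place of 113 and 118) and 1 and 9 in SUDHL2 hypoxia against HLY normoxia (in place of 553 and 973). Detection on all 12 arrays left 2 of the 8 genes higher in HLY, 3 lower in SUDHL2, 2 with a positive difference of responses, 2 lower at 21% and 2 higher at 1% oxygen, since fewer genes were tested. In HLY hypoxia against SUDHL2 normoxia, 1 gene was lower in place of 2 without a detection limit and with only the groups compared. The replicate block, with the replicate number as a term, also gave 1 there and changed no other count of the 8 genes. Deviations of same-numbered arrays correlated at −0.357 to 0.275 over 18 pairs, 3 of them above 0.1. In 5 of the 18 the best match bore the same number. With 3 arrays per group, this cannot exclude that the numbers pair the arrays. Leaving out 1 array at a time gave 1 to 2 lower genes in HLY hypoxia against SUDHL2 normoxia, 0 to 1 higher in SUDHL2 hypoxia against HLY normoxia and 0 to 1 higher at 21% oxygen. The methods' t-test gave 2 lower in SUDHL2 hypoxia against HLY normoxia and 0 higher at 21% at its own threshold. After Benjamini-Hochberg it gave 0 lower in HLY hypoxia against SUDHL2 normoxia, 0 lower in SUDHL2 hypoxia against HLY normoxia and 0 higher at 21%. The selection of the study's methods on the scores gave 3 higher in HLY, 3 lower in SUDHL2, 0 higher and 3 lower at 21%, and 3 higher and 0 lower at 1% oxygen. Over all genes, detection on all 12 arrays called 2046 higher in HLY (in place of 3185) and 2024 lower in SUDHL2 (in place of 3171), and the methods' selection 504 higher and 518 lower in HLY and 505 and 539 in SUDHL2. The smallest counts without 1 array were 184 higher on average, 50 lower in HLY hypoxia against SUDHL2 normoxia and 210 higher in SUDHL2 hypoxia against HLY normoxia. Among the other p53 targets, the methods' selection called 1 higher and 2 lower in HLY, and leaving out 1 array gave 1 to 6 lower and 1 to 2 higher in SUDHL2 hypoxia against HLY normoxia. Signals near background limit MDM2, SESN1, GADD45A, FAS, TP53I3, EP300, CCND2, DRAM1, SESN2, PERP, SPATA18 and TP53INP2, whose low levels could not be measured. The low levels of TP53INP1 lay near the detection limit, so its fold values are limited as well.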
